A study of Mus musculus with 11 samples.

Results

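Saa3, Saa1, Lcn2, Hp, Lrg1, Serpina3n, Mt1 and Mt2 encode secreted acute-phase proteins and metal-binding metallothioneins, and their RNA was followed in mouse thymic fibroblasts after dexamethasone. These 8 genes, of 12430 in the deposited table, were picked by symbol because their levels in these same libraries had stood out, so their levels and differences are given as a description and without a test. Fibroblasts are the connective tissue cells of the thymus, the organ in which T cells form, and dexamethasone is a synthetic glucocorticoid that makes it shrink. All mice were young wild-type males. One group of 3 libraries was taken 18 h, and another of 4 libraries 4 d, after an intraperitoneal dose of 200 ug per 10 g body weight. The 4 untreated libraries came from age-matched mice that got no injection, so an effect of the injection itself cannot be told apart from that of the drug. The later group is called 3 d in its titles and 4 d in its other labels, and 4 d is used here.

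The sort is labelled as CD45-, EpCAM+, CD34+, CD31- and PDGFRalpha+. In the libraries, Cd34 and Pdgfra, genes of surface proteins of that gate, and collagen genes were detected throughout. Epcam was near the detection limit, at 0.378 to 10.4 CPM in the untreated libraries, 1.22 to 4.80 CPM at 18 h and 1.09 to 5.67 CPM at 4 d, which goes against the EpCAM+ label. Genes of the proteins that the gate excludes were low without treatment and rose at 18 h, Ptprc (CD45) from 0.518 to 5.60 CPM to 6.08 to 16.0 CPM (edgeR adjusted p = 0.037) and Pecam1 (CD31) from 0 to 3.78 CPM to 14.6 to 122 CPM (adjusted p = 0.0013), the libraries in which the 8 genes were also high. CPM here are counts relative to the size of the library, after scaling each library by its TMM factor. The labels do not say that replicates came from separate animals, so p-values reflect how far these libraries spread, and that spread may be technical. In such bulk samples, fewer cells of a type and less RNA per cell cannot be told apart.

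The acute-phase response is a change in secreted proteins that follows injury or infection. It is best known from the liver, where interleukin-1 and interleukin-6 act through NF-kB, C/EBP factors and STAT3, and where glucocorticoids strengthen the response of many of these genes. Stromal cells can make several of the same proteins. Metallothioneins are small cysteine-rich proteins that hold zinc and copper, and their genes respond to metals through the factor MTF-1 as well as to glucocorticoids.

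The stretch of 250 bases before the start site is shown for the 4 of these genes where a searched motif matched. It is also shown for Saa2, the near copy of Saa1. The sequences are RefSeq's on GRCm38.p6, and 7 of the 8 genes had an entry, Hp being the gene without one. Each runs 5′ to 3′ on the strand of its gene, and capitals mark matches to a searched motif on either strand. Mt2 lies on the plus strand at chr8:94172368-94172617, Mt1 on the plus strand at chr8:94178839-94179088 and Serpina3n on the plus strand at chr12:104406458-104406707. Saa1 lies on the minus strand at chr7:46742981-46743230 and Saa2 on the plus strand at chr7:46751583-46751832.
Mt2: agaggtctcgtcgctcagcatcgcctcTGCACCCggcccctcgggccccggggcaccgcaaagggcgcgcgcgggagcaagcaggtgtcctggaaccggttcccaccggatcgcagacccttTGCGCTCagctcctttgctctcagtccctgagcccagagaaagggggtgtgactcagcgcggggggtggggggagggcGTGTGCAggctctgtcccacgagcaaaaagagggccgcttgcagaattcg
Mt1: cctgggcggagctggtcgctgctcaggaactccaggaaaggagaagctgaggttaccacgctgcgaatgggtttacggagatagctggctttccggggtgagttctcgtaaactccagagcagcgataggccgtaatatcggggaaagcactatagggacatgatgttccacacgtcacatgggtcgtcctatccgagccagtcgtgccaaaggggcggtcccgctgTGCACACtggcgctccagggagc
Saa1: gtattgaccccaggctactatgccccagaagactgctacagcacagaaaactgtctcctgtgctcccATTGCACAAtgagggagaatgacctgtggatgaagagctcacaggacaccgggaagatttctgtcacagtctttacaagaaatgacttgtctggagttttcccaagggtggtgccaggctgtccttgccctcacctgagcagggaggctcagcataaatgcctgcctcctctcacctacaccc
Saa2: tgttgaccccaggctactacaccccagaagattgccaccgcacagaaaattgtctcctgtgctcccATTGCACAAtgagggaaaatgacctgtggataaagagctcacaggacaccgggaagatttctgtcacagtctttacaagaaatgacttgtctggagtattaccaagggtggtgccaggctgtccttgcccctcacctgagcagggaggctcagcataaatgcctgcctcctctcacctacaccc
Serpina3n: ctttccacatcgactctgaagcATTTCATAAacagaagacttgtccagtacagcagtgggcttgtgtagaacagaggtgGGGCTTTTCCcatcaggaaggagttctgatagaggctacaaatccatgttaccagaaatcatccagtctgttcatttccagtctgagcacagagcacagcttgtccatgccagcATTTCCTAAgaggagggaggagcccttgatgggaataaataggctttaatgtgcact

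The metal response element core, searched as TGCACNC or TGCGCNC, occurred 3 times before Mt2, beginning 223, 128 and 50 bases ahead of the start, and 1 time before Mt1, 23 bases ahead. Of 32851 mouse promoters of the same length, 21.4% held at least 1 such match and 1.26% held 3 or more. A C/EBP motif, TTNNGNAAT, was found 1 time each before Saa1 and Saa2 and 2 times before Serpina3n, and in 10.2% of all promoters. Serpina3n also held 1 NF-kB motif (GGG, then NN, TT, N and CC) present in 4.11% of promoters. The STAT motif TTCNNNGAA (7.02% of promoters) and the glucocorticoid receptor motif, AGNACA and TGTNCT with NNN between them (0.0609%), matched none of the 7 windows. The windows of Saa3, Lcn2 and Lrg1 held no match to any of the searched motifs and are not shown. No matches overlapped one another. A match describes letters and not a bound site, and these windows hold only the bases nearest to 1 annotated start per gene. GENCODE lists 3 Mt1 transcripts, whose starts run from 7 bases before to 152 bases after the start used here, and 2 Mt2 transcripts, which start 46 and 242 bases after it. Windows at these other starts were not searched. The numbers of matches before Mt1 and Mt2 depend on the start used and are not compared with each other.

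The windows of Saa1 and Saa2 were 94.8% identical over their alignment, with 238 identical, 11 mismatched and 2 gapped positions. Those of Mt1 and Mt2 were 46.3% identical, and those of Saa1 and Saa3 48.5%. The value for Mt1 and Mt2 also depends on the start used for each gene. The transcripts differed in the same way. Saa1 and Saa2 shared a run of up to 76 bases. Between their last 300 bases, which a 3′ end method reads, the longest shared run was 73 bases. Counts of this pair may thus have been split between them. The longest run shared by Mt1 and Mt2 was 20 bases. All 8 genes are protein-coding in GENCODE on GRCm38. The metallothionein genes are neighbours on chromosome 8, with Mt2 at 94172664 to 94173568 and Mt1 at 94179082 to 94180327. Saa3 (46711998 to 46715700) and Saa1 (46740497 to 46742980) lie on chromosome 7.

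Libraries held 916281 to 3357113 counts, the lowest being 18 h replicate 2 (924731) and 4 d replicate 4 (916281). A count of 0 allows a level of up to 3.27 CPM in the shallowest library and 0.894 CPM in the deepest, for counting error only. All 8 genes were among the 10067 that passed the filter on low counts. At an adjusted p below 0.05 in edgeR's quasi-likelihood test, 7.85% of the tested genes were higher and 4.69% lower at 18 h than untreated, 2.48% higher and 0.824% lower at 4 d than untreated, and 1.7% higher and 3.81% lower at 4 d than at 18 h. In either direction that is 12.5%, 3.31% and 5.51%. Scaling by total counts moved the median log2 difference of all genes from -0.03 to -0.26 at 18 h and from -0.04 to -0.22 at 4 d. With it the share of calls that were upward went from 62.6% to 38.3% at 18 h and from 75.1% to 51.6% at 4 d. None of the 8 genes changed direction with the scaling.

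Of the secreted acute-phase proteins, the serum amyloids A are lipid-binding proteins carried on high-density lipoprotein, and in the mouse Saa3 is the form made mainly outside the liver. Saa3 stood at 131, 109, 91.3 and 124 CPM in untreated replicates 1 to 4. Its level was 17175, 22967 and 9518 CPM in the 3 libraries at 18 h. At 4 d it was 190, 215, 286 and 274 CPM. The groups did not overlap, with every 18 h library far above the rest and every 4 d library above every untreated one. The mean of 16553 ± 6746 CPM (SD, n = 3) at 18 h was 146 times the untreated mean of 114 ± 17.4 CPM (SD, n = 4), a log2 difference of 7.19 ± 0.35 (SE). At 4 d the mean of 241 ± 46.1 CPM (SD, n = 4) was 2.13 times the untreated one, a log2 difference of 1.09 ± 0.27 (SE). That was the smallest difference from untreated of all 8 genes at 4 d.

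Saa1, the form that the liver secretes in quantity, was close to the detection limit without treatment. Its counts were 0, 3, 8 and 18 in the untreated libraries, where the 0 allows up to 1.64 CPM on total counts, without the TMM factor. They were 313, 336 and 126 at 18 h, or 167, 408 and 60.1 CPM. At 4 d they were 29, 27, 25 and 7, which is 10.6, 9.57, 8.33 and 8.72 CPM. Every 4 d library lay above the highest untreated level of 6.81 CPM, by a small margin. The log2 difference was 6.07 ± 0.68 (SE) at 18 h and 1.60 ± 0.70 at 4 d. Saa1 was also the gene most uneven among the 18 h libraries apart from Lrg1, its highest level being 6.80 times its lowest. Saa1 made up 78.1%, 84.8% and 66.7% of the summed Saa1 and Saa2 counts in 18 h replicates 1 to 3, and 64.3% to 87.5% at 4 d.

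Lcn2 encodes lipocalin 2, which binds the iron carriers of bacteria and is also stored in neutrophil granules (chromosome 2, 32384633 to 32388252). Its level was 39.4, 40.9, 54.2 and 18.2 CPM untreated. It was 2622, 8031 and 3952 CPM at 18 h. At 4 d it was 111, 104, 134 and 107 CPM. The lowest 18 h library stood well above every other library, and the 4 d libraries formed a tight set above all untreated ones. Means were 38.2 ± 14.9 CPM (SD, n = 4), 4868 ± 2818 CPM (SD, n = 3) and 114 ± 13.5 CPM (SD, n = 4), which is 128 times the untreated mean at 18 h and 2.99 times at 4 d. The log2 differences from untreated were 6.99 ± 0.45 and 1.58 ± 0.36 (SE).

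Haptoglobin, the product of Hp, captures haemoglobin freed from red cells (chromosome 8, 109575128 to 109579172). Untreated levels of Hp were 33.7, 33.0, 18.5 and 45.8 CPM. At 18 h they were 618, 3918 and 772 CPM, and at 4 d 261, 355, 128 and 258 CPM. The 18 h replicate 2 library stood apart from the other two, whose levels were less than 3 times the highest at 4 d. The difference from untreated was 5.75 ± 0.63 on the log2 scale at 18 h and 4.40 without 18 h replicate 2. At 4 d it was 2.93 ± 0.55, the largest of the 8 genes at that time, with a mean 7.65 times the untreated one. Between 18 h and 4 d the log2 difference was -2.82 ± 0.55, and -1.47 without 18 h replicate 2.

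Lrg1 encodes a secreted leucine-rich glycoprotein known for its action on TGF-beta signalling in endothelium (chromosome 17, 56119678 to 56122001). It had 2, 2, 1 and 0 counts in the untreated libraries. Counts were 300, 22 and 450 at 18 h, or 160, 26.7 and 215 CPM. At 4 d they were 5, 8, 12 and 0. The 18 h libraries lay above all others, and the 4 d libraries overlapped the untreated ones, with a mean of 2.16 ± 1.70 CPM (SD, n = 4) where the untreated mean was 0.628 ± 0.540 CPM (SD, n = 4). The log2 difference of 7.80 ± 0.77 (SE) at 18 h is large but rests on 5 untreated counts in all. At 4 d it was 2.11 ± 1.02, on 25 counts against 5.

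Serpina3n encodes a secreted inhibitor of serine proteases (chromosome 12, 104406729 to 104414329). Its level was 72.5, 81.8, 45.7 and 68.9 CPM untreated. It was 2400, 4003 and 1685 CPM at 18 h. At 4 d it was 134, 142, 318 and 253 CPM. The 3 groups did not overlap, and at 4 d replicates 3 and 4 stood above replicates 1 and 2. The log2 difference was 5.33 ± 0.40 (SE) at 18 h, a 40.1-fold higher mean, and 1.65 ± 0.34 at 4 d, a 3.15-fold higher mean. Over the 11 libraries Serpina3n kept closest to the median profile of all 8 genes, with a root mean square difference of 0.34 on the log2 scale against 1.44 for Mt1, the farthest.

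**Figure D1:**
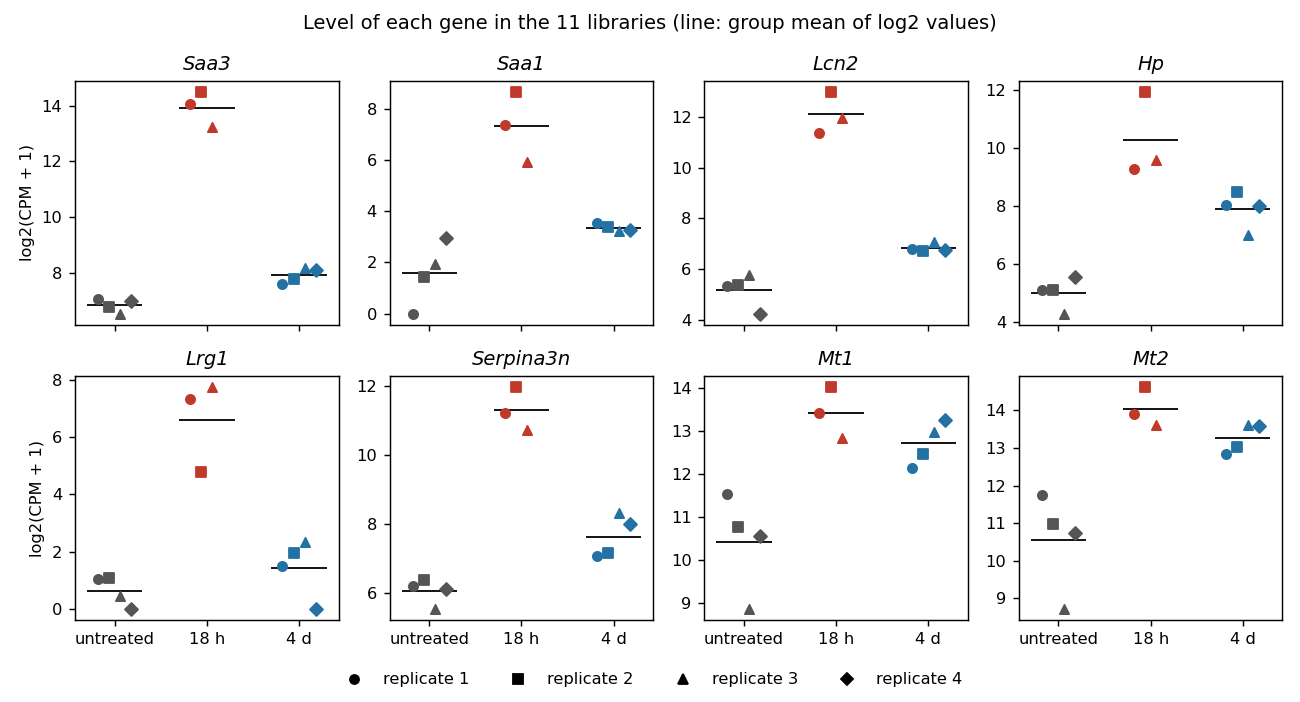
Level of each of the 8 genes, as log2 of CPM plus 1 (y axis, its range set per gene), in each of the 11 libraries by group, with the group mean of the log2 values as a line. A library with 0 counts lies at 0. Every 18 h library lies above every untreated one for all 8 genes, and at 4 d the metallothioneins stay near their 18 h levels, Hp lies midway, and the other 5 genes lie nearer to the untreated ones. The share of all tested genes that separate in this way was not counted.

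The plot of levels by library separates the metallothioneins from the other 6 genes by their course. Mt1 stood at 2950, 1743, 467 and 1516 CPM untreated. It was at 11061, 16612 and 7297 CPM at 18 h and at 4552, 5713, 8142 and 9751 CPM at 4 d. Its 4 d libraries were all above the untreated ones and overlapped those at 18 h. The means were 1669 ± 1019 CPM (SD, n = 4), 11657 ± 4686 CPM (SD, n = 3) and 7040 ± 2346 CPM (SD, n = 4), or 6.99 and 4.22 times untreated. Mt1's log2 differences from untreated were 2.80 ± 0.48 at 18 h and 2.08 ± 0.45 at 4 d (SE).

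Mt2 stood at 3463, 2027, 420 and 1708 CPM untreated. Its level was 15302, 25107 and 12495 CPM at 18 h and 7346.5, 8275, 12412 and 12402 CPM at 4 d. The lowest 18 h library was just above the highest at 4 d, and all 7 treated libraries were above every untreated one. Mt2's log2 differences from untreated were 3.21 ± 0.51 at 18 h and 2.41 ± 0.48 at 4 d (SE), and the difference between the times was -0.80 ± 0.49, against -0.73 ± 0.47 for Mt1. The untreated libraries were uneven for both genes, with replicate 3 lowest and replicate 1 highest. Saa3, Hp and Serpina3n were also lowest in untreated replicate 3, and Lcn2 was highest there.

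Within the metallothionein pair, the balance of counts differed with treatment. Mt2 made up 54.0%, 53.8%, 47.4% and 53.0% of the pair's counts in the untreated libraries. Its share was 58.0%, 60.2% and 63.1% at 18 h and 61.7%, 59.2%, 60.4% and 56.0% at 4 d. All 7 treated libraries lay above all 4 untreated ones. The longest run shared by the pair's transcripts, 20 bases, was given above, and the length of the reads is not given in the sources used here.

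**Figure D2:**
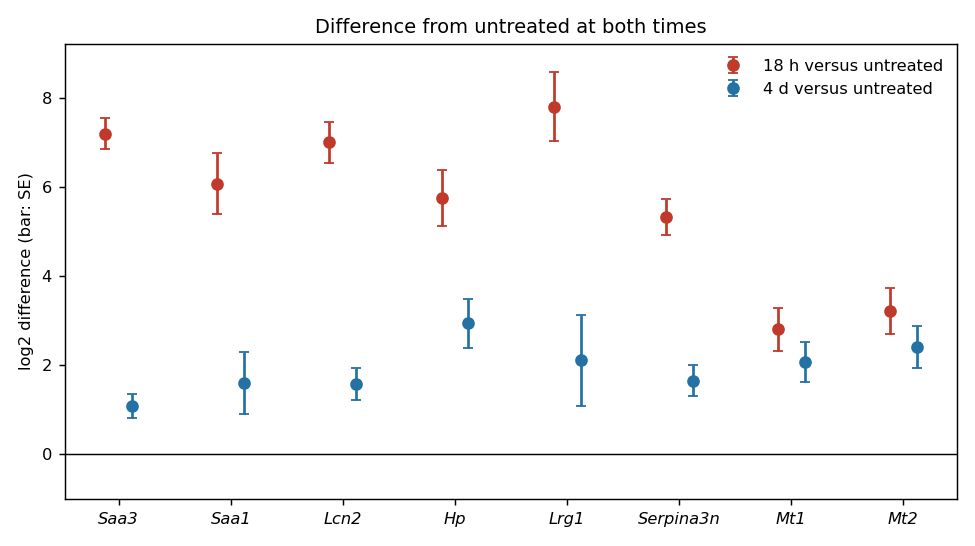
Log2 difference from untreated (y axis, with SE bars) for each of the 8 genes at 18 h and at 4 d. The 6 acute-phase genes lie between 5.33 and 7.80 at 18 h and between 1.09 and 2.93 at 4 d, and the metallothioneins at 2.80 and 3.21, then 2.08 and 2.41.

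The plot of both differences per gene shows how much of the 18 h level was still present later. Expressed as the share of the 18 h excess over untreated that remained at 4 d, means gave 0.777% for Saa3, 1.15% for Lrg1 and 1.57% for Lcn2. The share was 3.09% for Saa1, 5.49% for Serpina3n and 12.5% for Hp. It was 52.2% for Mt2 and 53.8% for Mt1. The metallothioneins thus kept about as much as they lost, and the other genes kept far less. For Hp the share was 32.9% without 18 h replicate 2, for Saa1 it was 5.84% without that library, and for Lrg1 it was 0.694% without 4 d replicate 3. With any other single library left out, each share stayed within 1.5 times its value, and the metallothioneins ranged from 44.1% to 71.5%. The comparisons with untreated share the 4 untreated libraries and, for the remaining excess, the 18 h libraries as well, so the values are not independent of each other.

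By the rule of adjusted p below 0.05, 8 of the 8 genes passed upward at 18 h, beside 7.85% of all tested genes upward and 12.5% in either direction. At 4 d 6 of 8 passed upward against untreated, beside 2.48% upward and 3.31% in either direction, the genes that did not being Saa1 and Lrg1. Between 18 h and 4 d 6 of 8 passed downward, beside 3.81% downward and 5.51% in either direction, the genes that did not being Mt1 and Mt2, and Hp did not pass without the 2 libraries of lowest total count (18 h replicate 2 and 4 d replicate 4). Nothing is read from these counts, since these contrasts chose the genes. At 4 d the count was 3 without untreated replicate 2, 1 without untreated replicate 4, 2 without 4 d replicate 3 and 3 without 4 d replicate 4. The 18 h count was 8 whichever library was left out.

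As a share of all counts in a library, the 8 genes together went from 0.127% to 0.708% untreated to 4.85%, 7.21% and 3.30% in 18 h replicates 1 to 3. At 4 d they held 1.31%, 1.53%, 1.91% and 2.02%. The 6 acute-phase genes held 0.0245% to 0.0293% of counts untreated, 2.27%, 3.50% and 1.48% at 18 h, and 0.0736% to 0.0856% at 4 d. The metallothioneins held 0.102% to 0.679%, then 2.58%, 3.71% and 1.81%, then 1.24% to 1.94%. At 18 h the acute-phase genes and the metallothioneins thus took near-equal parts of the counts, and at 4 d nearly all of the sum was metallothionein.

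**Figure D3:**
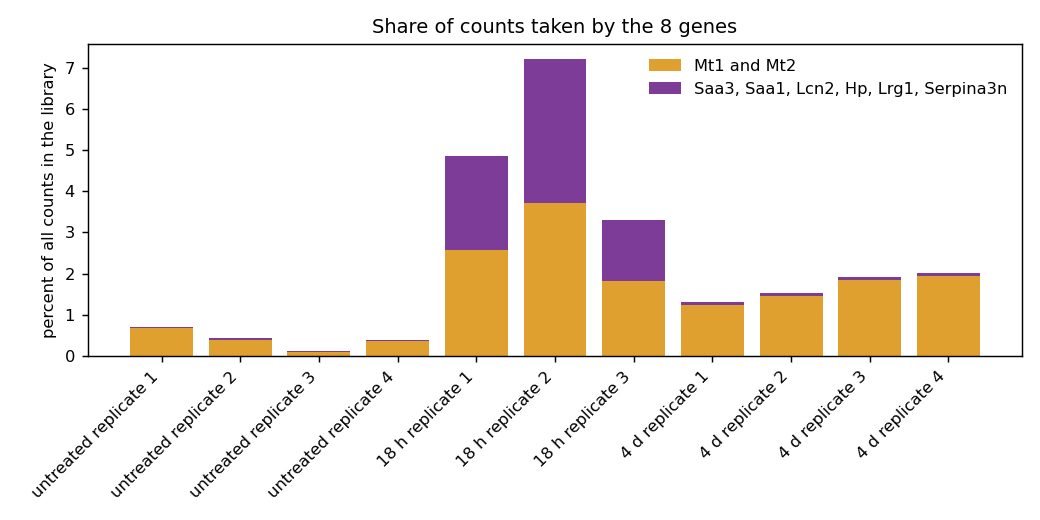
Percent of each library's counts held by the 6 acute-phase genes and by Mt1 and Mt2, stacked, for the 11 libraries. Both parts are present at 18 h, at 3.30% to 7.21% in sum, and the metallothionein part makes up nearly all of the 1.31% to 2.02% at 4 d.

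The 18 h libraries differed from each other, and 7 of the 8 genes were highest in replicate 2. Their highest level was 2.01 (Mt2) to 6.80 (Saa1) times their lowest. Lrg1 ran the other way, with its lowest level in replicate 2 and 8.03 times as much in replicate 3. Marker genes of other cells also differed between these libraries. The sum of 14 endothelial markers was 1190, 310 and 820 CPM in 18 h replicates 1 to 3, against 233 to 393 CPM untreated and 227 to 300.5 CPM at 4 d, and Vwf and Emcn were at 0 counts in replicate 2. Much of the untreated sum was Kdr and Esam, which did not pass at 18 h. Kdr was lower in each 18 h library, at 36.8, 12.2 and 42.0 CPM against 70.8 to 122 CPM untreated (edgeR adjusted p = 0.060). In edgeR's test 5 of 9 tested endothelial markers rose, beside 7.85% of all tested genes, namely Pecam1, Flt1, Cldn5, Egfl7 and Plvap. Pecam1 was at 122, 14.6 and 42.9 CPM and Flt1 at 73.0, 14.6 and 42.9 CPM, in replicate 2 as well above the highest untreated levels of 3.78 and 5.04 CPM. Replicates 1 and 3 had a higher summed level of endothelial markers and more Lrg1 than replicate 2, although Lrg1 was higher in replicate 3 and the markers in replicate 1. Whether endothelial RNA had a part in the Lrg1 level was not tested.

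Neutrophil markers, 12 of 17 of which were in the table, summed to 353, 76.6 and 158 CPM in 18 h replicates 1 to 3, against 10.3 to 55.4 CPM untreated and 3.64 to 47.3 CPM at 4 d. Lyz2, Itgam and Ptprc are also macrophage markers, and without them the other 9 summed to 224, 59.5 and 15.7 CPM at 18 h and 6.78 to 34.8 CPM untreated. S100a9, Ngp and Camp were found mainly in replicate 1, with 190, 85 and 37 counts. Ngp and Camp had 0 counts in replicates 2 and 3, and S100a9 had 30 and 3. Other markers of the list differed from that order. Mpo had 1, 6 and 4 counts in 18 h replicates 1 to 3. Mmp9 had 54, 6 and 20 counts there, against 14 to 81 in the untreated libraries. Neutrophils are known to store lipocalin 2, haptoglobin and Lrg1 protein. Lcn2 and Hp were lowest in replicate 1 and highest in replicate 2, while Lrg1 was higher in replicate 1 than in replicate 2. Of the hepatocyte markers, 6 of 11 were in the table and nearly all of their sum was Trf, which was 227, 695 and 456 CPM at 18 h against 514 to 757 CPM untreated. Apoa1, too low in counts to be tested, had 1, 0, 1 and 1 counts untreated, 3, 1 and 7 at 18 h and 7, 12, 10 and 8 at 4 d. In CPM that is at most 0.518 untreated, 1.22 to 3.34 at 18 h and 2.55 to 9.97 at 4 d. Apoa2 had 1, 1 and 2 counts at 18 h, against 1 to 5 untreated. Cyp2e1 had 0 in each 18 h library, against 1 to 10 untreated, and Cps1 had 1, 0 and 0, against 1 to 7. Ahsg was at 2.67, 34.0 and 11.9 CPM at 18 h, highest in replicate 2 like 7 of the 8 genes, against 0.518 to 5.30 CPM untreated (edgeR adjusted p = 0.051), and rose at 4 d, by 3.39 ± 0.75 on the log2 scale (adjusted p = 0.025).

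The sum of 10 pericyte and smooth muscle markers was 1088, 542 and 403 CPM in 18 h replicates 1 to 3, above the 133 to 301 CPM of the untreated libraries, and 119 to 185 CPM at 4 d. Macrophage and monocyte markers, 11 of 16 in the table, summed to 268, 169 and 317 CPM at 18 h, 72.5 to 175 CPM untreated and 83.0 to 149 CPM at 4 d. Fibroblast markers, 10 of 10 in the table, were lower at 18 h, at 14385, 9020 and 18951 CPM against 20086 to 30608 CPM untreated and 22544 to 40156 CPM at 4 d. In exact two-sided permutation tests of 18 h against untreated, the neutrophil, pericyte and fibroblast sums each reached p = 0.0571, the smallest that 3 against 4 libraries can give, and 0.343 after adjustment over 18 tests. Single markers passed in edgeR's test at 18 h, where 7.85% of all genes rose and 4.69% fell. Of 9 tested pericyte and smooth muscle markers 4 rose, Tagln (adjusted p = 0.0020), Mcam, Notch3 and Des, and Abcc9 fell. Of 10 tested macrophage and monocyte markers 5 rose, Ly6c2 (adjusted p = 0.00035), Cybb, Cd68, Lyz2 and Ptprc. Csf1r of that list was lower, at 21.9, 31.6 and 36.7 CPM against 37.5 to 65.5 CPM untreated, and did not pass (edgeR adjusted p = 0.34). C1qa, C1qb, C1qc and Mertk did not pass either. Of 10 fibroblast markers Col1a2 fell. Mesothelial markers (9 of 10) summed to 2558, 4760 and 4332 CPM at 18 h and 3643 to 5925 CPM untreated. They were 5134, 5271, 642 and 1784 CPM in 4 d replicates 1 to 4, and Saa3, Serpina3n, Mt1 and Mt2 were higher in the last 2 of these libraries than in the others. Saa1 and Hp were lower in those last 2 libraries, Hp at 128 and 258 CPM against 261 and 355 CPM. Lcn2 and Lrg1 followed neither order. The part of any of these cells in the levels of the 8 genes was not tested.

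**Figure D4:**
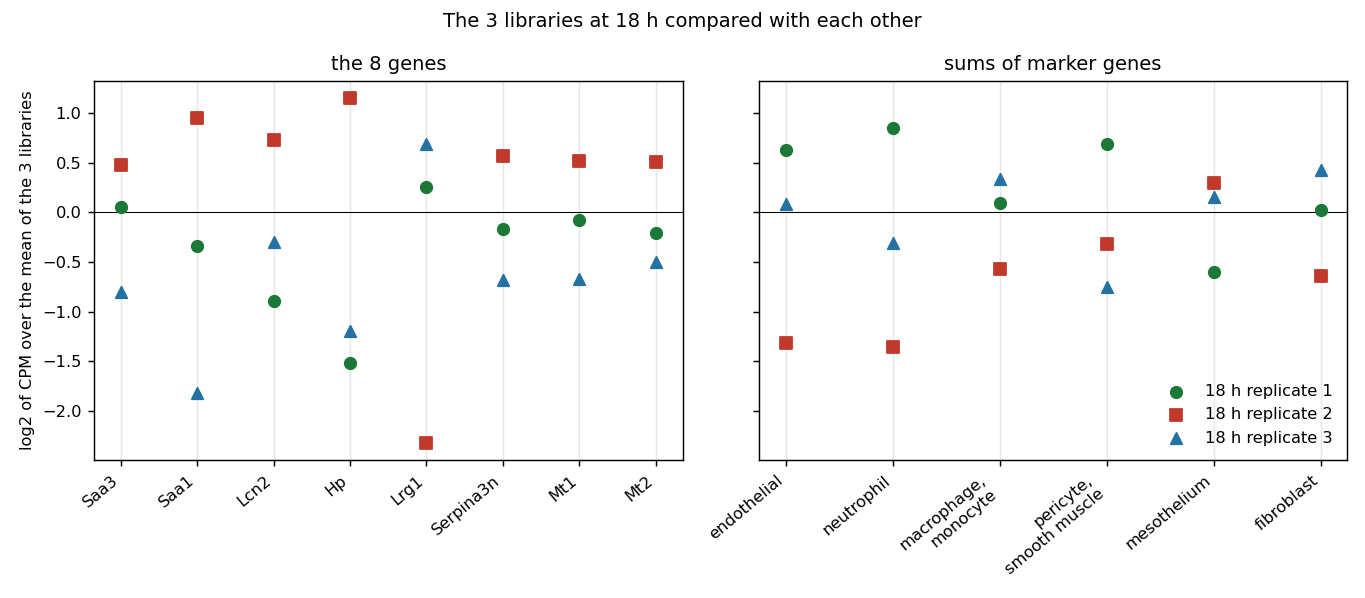
Level in each of the 3 libraries at 18 h as the log2 of CPM over their mean (y axis), for the 8 genes (left) and for sums of marker genes (right). Replicate 2 is highest for the mesothelial sum and for every gene but Lrg1. It is lowest for the endothelial, neutrophil, macrophage and fibroblast sums, at 310, 76.6, 169 and 9020 CPM.

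Genes related to these 8 by role were taken from 7 lists with 129 tested members. At 18 h 31 rose and 1 fell, beside 7.85% and 4.69% of all tested genes, with a median log2 difference of 0.44 beside -0.03 over all genes. Without untreated replicate 3 the number that changed was 19 in place of 32. Of the other acute-phase genes 11 of 16 rose and 0 fell, with a median of 1.79. Saa2, the near copy of Saa1, rose from 8 counts over the untreated libraries to 211 over those at 18 h, by 5.68 ± 0.60 on the log2 scale (edgeR adjusted p = 5.2e-05). Lbp, which hands bacterial lipopolysaccharide to its receptor, rose by 3.00 ± 0.38 (adjusted p = 0.00022). The pentraxin Ptx3, a soluble pattern recognition protein of stromal cells, rose by 3.40 ± 0.50, and Steap4, a metal reductase, by 2.07 ± 0.43. The Serpina3n relatives Serpina3f and Serpina3g rose as well, and reads may be shared within that family.

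Among cytokines and factors that act upstream of acute-phase genes, 11 of 27 rose and 0 fell, with a median of 1.06. Il1b, the interleukin-1 beta gene, rose by 5.50 ± 1.13 (adjusted p = 0.0064) from 10 counts over the untreated libraries. Its levels were 96.5, 15.8 and 39.1 CPM in 18 h replicates 1 to 3. They were lowest in replicate 2, as were the neutrophil, macrophage, endothelial, thymocyte and fibroblast sums. Il1b was highest in replicate 1 and the macrophage sum in replicate 3. Which cells held the Il1b RNA was not tested. Lif, a cytokine of the interleukin-6 family, rose by 2.90 ± 0.43, and Myd88, the adaptor of interleukin-1 and Toll-like receptors, by 1.71 ± 0.27 (adjusted p = 0.0014). Il6 rose by 2.39 ± 0.60 (adjusted p = 0.020), a call that was lost without untreated replicate 3 or 18 h replicate 2. Stat3 at 1.07 ± 0.39 (adjusted p = 0.088), Socs3 at 0.92 ± 0.40 (adjusted p = 0.15), Cebpb at 0.66 ± 0.27 (adjusted p = 0.12) and Cebpd at 1.35 ± 0.52 (adjusted p = 0.10) did not pass, although Stat3 did without untreated replicate 1 or 18 h replicate 3 and Cebpd without 18 h replicate 2. Of 11 receptors and targets of the 8 proteins 1 rose, a share near that of all genes (7.85%). It was Eng, which encodes a TGF-beta co-receptor through which Lrg1 acts and is also an endothelial gene, at 1.61 ± 0.30 (adjusted p = 0.0039).

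Of 26 zinc and copper genes 1 rose at 18 h, a share below the 7.85% of all genes. This was the copper chaperone gene Atox1, by 0.97 ± 0.25 (adjusted p = 0.020), and its call was lost without untreated replicate 2 or 3 or 18 h replicate 1, and with total-count scaling. Mtf1, the gene of the metal-sensing factor, stood at 0.29 ± 0.35 (adjusted p = 0.63), and the zinc exporter gene Slc30a1, another target of that factor, at 0.73 ± 0.31 (adjusted p = 0.14). Of 23 iron and haem genes 3 rose. Slc39a14, an importer of zinc and of iron not bound to transferrin, rose from 19.7, 17.4, 5.35 and 7.95 CPM to 151, 146 and 83.9 CPM, by 3.36 ± 0.42 (adjusted p = 0.00022). The ferritin heavy chain gene Fth1 rose by 0.95 ± 0.23 (adjusted p = 0.015), a call lost without 18 h replicate 3, and the iron transporter gene Slc11a2 by 1.54 ± 0.43 (adjusted p = 0.031), a call lost in several single-library omissions. Hmox1, which breaks down haem, stood at 1.25 ± 0.41 (adjusted p = 0.062) and did not pass, although it did with DESeq2, limma-voom and the replicate block. Of 14 oxidative stress genes 3 rose, Txn1 (thioredoxin) by 1.28 ± 0.26 (adjusted p = 0.0059), Gclc and Txnrd1. The Gclc call was lost without 18 h replicate 3, and that of Txnrd1 without 18 h replicate 2 or untreated replicate 2, 3 or 4. Of 12 glucocorticoid response genes 1 rose and 1 fell, beside 7.85% and 4.69% of all tested genes, the upward share being near that of all genes. Ddit4 rose by 1.51 ± 0.27, and Nr3c1, the glucocorticoid receptor gene, fell by 1.61 on the log2 scale (SE 0.27, adjusted p = 0.0019).

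At 4 d 17 of the 129 related genes were higher than untreated and 1 lower, beside 2.48% and 0.824% of all tested genes, with a median of 0.31 beside -0.04 over all genes. The number that changed was 7 without untreated replicate 2 or 3, 5 without untreated replicate 4 and 9 without 4 d replicate 3, in place of 18. Of the other acute-phase genes 2 of 16 were higher, among them Ptx3 by 3.45 ± 0.49 (adjusted p = 0.0039). Ptx3 stood at 1208, 1317 and 2081 CPM at 18 h and 1403, 1029, 2598 and 1360 CPM at 4 d, so the 2 groups overlapped and their means, 1536 and 1598 CPM, were close. Among upstream genes 5 of 27 were higher, including Osmr, the oncostatin M receptor gene, by 1.97 ± 0.39 (adjusted p = 0.015) and Myd88 by 1.43 ± 0.26 (adjusted p = 0.012). Hmox1 was higher by 2.09 ± 0.40 (adjusted p = 0.013) and Slc39a14 by 2.05 ± 0.40 (adjusted p = 0.014), the latter a call lost without untreated replicate 4. Of 26 zinc and copper genes 1 was higher, the zinc importer gene Slc39a6, by 1.10 ± 0.26 (adjusted p = 0.035), a call lost in several single-library omissions. Of 14 oxidative stress genes Gclc, Gclm and Txnrd1 were higher, by 1.28 ± 0.26, 1.04 ± 0.24 and 1.70 ± 0.37. Of 12 glucocorticoid response genes Sgk1 (2.44 ± 0.50), Errfi1 (2.07 ± 0.45) and Cdkn1a (1.36 ± 0.30) were higher and Ddit4 was lower, and the 3 upward calls of each list were lost without untreated replicate 3 or 4.

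Between 18 h and 4 d, 9 related genes fell and 1 rose, beside 3.81% and 1.7% of all tested genes, with a median of -0.10 beside 0.00 over all genes, and 5 changed without 18 h replicate 1 in place of 10. Of the other acute-phase genes 5 of 16 fell, among them Saa2 with a log2 difference of -4.03 ± 0.51 and Lbp with -1.86 ± 0.36 (adjusted p = 0.0078). Slc30a1 fell, with a log2 difference of -1.80 ± 0.33 (adjusted p = 0.0048), from 14.9, 19.4 and 13.8 CPM at 18 h to 5.82, 4.96, 3.67 and 2.49 CPM at 4 d. Those 4 d levels lay below all 4 untreated ones, at 8.40 to 10.6 CPM (edgeR adjusted p = 0.073), while Mt1 and Mt2 were above theirs in the same libraries.

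**Figure D5:**
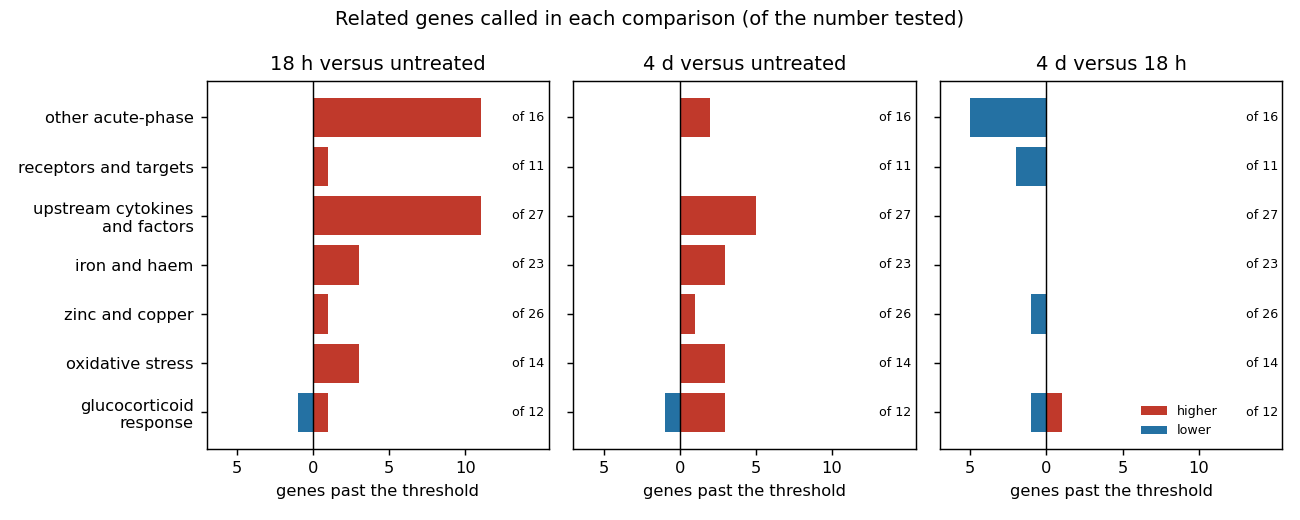
Number of tested genes of each of the 7 related lists that passed upward (right of 0) or downward (left of 0) in each of the 3 comparisons, with the number tested beside each bar. Other acute-phase genes and upstream cytokines and factors each have 11 upward calls at 18 h, and the acute-phase list has 5 downward calls between 18 h and 4 d.

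Outside the 8 genes, the profile nearest to their median over the 11 libraries was that of Csf3, the granulocyte growth factor gene, with a root mean square difference of 0.69 on the log2 scale. Oasl1 followed at 0.79, Saa2 at 0.84, Timp1 at 0.97, Irf7 at 1.15 and Slc6a12 at 1.16, where the median over all tested genes was 3.18. These were the nearest by a rule that measures likeness alone. Csf3 was at 1.55, 1.12, 0.357 and 3.41 CPM untreated, 136, 227 and 119 CPM at 18 h and 4.73, 4.25, 17.0 and 2.49 CPM at 4 d. Replicate 2 was highest at 18 h, as for 7 of the 8 genes. Likeness over these same libraries chose Csf3, so nothing is read from that order. Timp1, a metalloproteinase inhibitor gene, was at 58.1 to 156 CPM untreated, 1648, 1783 and 1284 CPM at 18 h and 412 to 878 CPM at 4 d, with 31.2% of its 18 h excess remaining.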

How the data were processed

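Sorted thymic fibroblasts were sequenced by MARS-seq, a method for the 3′ ends of polyadenylated RNA, per the labels' protocols. The submitters' processing notes name the build mm10, whose sequence GRCm38 shares, and bcl2fastq, cutadapt, HTSeq, DESeq2 and STAR 2.5.2b. Strand setting, annotation and any collapsing of molecular identifiers are not given in the sources used, and reads of genes that overlap could be mixed. Every test used the whole-number counts per gene symbol that the authors deposited. They also deposited a normalized signal, regularized log2 values, log2 fold changes and p-values, which were not used in tests. No column was left unmatched to a sample.

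The 8 genes and all gene lists were chosen with earlier results of these data known. Genes were kept by filterByExpr (minimum count 10, 10067 genes), scaled by TMM and fitted in edgeR 4.0.16 (R 4.3.3) with all 11 libraries in 1 robust quasi-likelihood model with group as its term. The threshold was 0.05 for p adjusted by Benjamini-Hochberg across the tested genes. The SE is the log2 difference over the square root of F. CPM are TMM-scaled. Replicates differed by more than sampling noise in all 15 pairs (chi-square per degree of freedom at least 4.79). Marker sums were compared by exact permutation tests in scipy 1.17.1.

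Named genes were the 8, up to 4 passing members per list and comparison with the smallest adjusted p, 18 genes listed by name, and the 6 nearest in profile. For 1 gene that met this rule no result is reported here; fits and counts include it. Of the listed genes, Tfrc, S100a8 and S100a9 did not pass the filter, and Ftl1 stood at 0.49 ± 0.29 (SE) on the log2 scale at 18 h. The thymic epithelium and thymocyte marker sums, with 8 of 11 markers each, were 415 to 597 and 93.6 to 182 CPM at 18 h, against 243 to 630 and 116 to 264 CPM untreated. The alternatives were other scalings, filters and tools, a replicate block, each library left out and near copies summed. The share of the 18 h excess without single libraries and the block by column numbers were added, and single marker genes chosen for naming, after the data were seen.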

Additional observations from a re-analysis of the deposited data

Results flagged for a closer look

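Ddit4, a stress gene that glucocorticoids induce, went in opposite directions at the 2 times, higher than untreated by 1.51 ± 0.27 at 18 h and lower by 1.71 at 4 d on the log2 scale, and the difference between the times, -3.23 ± 0.29 (SE), passed in edgeR's quasi-likelihood test (adjusted p = 1.3e-05). Its levels were 43.5, 47.0, 37.8 and 53.0 CPM untreated, 125, 187 and 79.6 CPM at 18 h and 12.7, 16.3, 12.3 and 13.7 CPM at 4 d, so none of the 3 groups overlapped. In 36 groups of 4 libraries looked at for a library far from the others, 0 were found, where chance gives about 1 in 20.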

How the results depend on the processing

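All 8 genes passed upward at 18 h in every alternative run for each, except Mt1 in the block by column numbers described next. At 4 d Saa1 and Lrg1 passed in none, Hp in all, and the others in some. The untreated libraries are 1 to 4 in the titles, whose numbers are used, and 1, 3, 4 and 5 in descriptions and column names. By titles, 2 of 10 same-numbered pairs correlated above 0.1 (range -0.34 to 0.19), and 0 of 11 libraries correlated best with their own number. By column names, 1 of 8 pairs did (range -0.14 to 0.36) and 2 of 11 libraries. The numbers are not taken as pairing the libraries. A replicate block gave 648 genes in place of 1262 at 18 h, 60 in place of 333 at 4 d and 305 in place of 555 between the times, 21 related genes at 18 h and 3 at 4 d in place of 32 and 18, and 1 of the 8 genes at 4 d in place of 6. A replicate block by the column numbers, added after the data were seen, gave 418, 91 and 364 genes, 20 and 7 related genes at 18 h and 4 d, and 1 of the 8 genes at 4 d, and its Mtf1 log2 difference 18 h versus untreated was -0.0051, a change of sign. DESeq2 gave 651 genes at 4 d and 874 between the times, with 20 related genes there in place of 10, and no filter gave 18. Fits of only the 2 groups compared gave 538 and 355 genes. The cause of these differences was not tested. Leaving out 1 library gave 668 to 1530 genes at 18 h, 115 to 617 at 4 d and 241 to 807 between the times, 19 to 39, 5 to 25 and 5 to 14 related genes, and 1 to 6 of the 8 genes at 4 d. Some marker sums, none past the threshold, changed sign. With CPM on total counts the differences from untreated were -7.23 for macrophages and -196 for fibroblasts at 4 d and -14.7 for thymic epithelium at 18 h. With 1 library left out they ran from -4.90 to 31.4 (macrophages) and -12.0 to 3.09 (neutrophils) at 4 d, and for thymic epithelium from -9.30 to 120 at 18 h and from -199.6 to 14.5 at 4 d. Among the 8 genes depth limits Lrg1 and Saa1 most, at 5 and 29 untreated counts.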
